A study of Mus with 6 samples.

Results

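NF-kB is a family of dimeric transcription factors that drives the inflammatory response to injury and infection. Its 5 subunits are encoded by Nfkb1, Nfkb2, Rel, Rela and Relb. In resting cells the dimers are held in the cytoplasm by IkB proteins, and a kinase complex marks these inhibitors for destruction once receptors for cytokines or for products of damaged cells are engaged. The released dimers then switch on genes for inflammation, survival and adhesion, as well as genes for their own inhibitors, so that the pathway limits itself. The 10 genes described here cover 3 subunits (Nfkb1, Nfkb2 and Relb), 4 members of the IkB family (Nfkbia, Nfkbie, Nfkbiz and Bcl3), and 3 further targets of the pathway (Tnfaip3, Birc3 and Icam1). They were chosen by name, with earlier results of these data known, and all 10 were found among the 55421 genes counted and among the 16810 genes that passed the low-count filter.

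RNAseq was performed on lens epithelial cells (LECs) of wild type C57BL/6 mice, 2 months old by the sample labels (the study's methods give an older range), after the lens fiber cells had been removed as a model of cataract surgery. The LECs stay attached to the lens capsule, and capsules were taken at 0 h or 6 h post cataract surgery (PCS), with 3 libraries per time point and 5 pooled capsules per library. Both groups had thus been operated, and the 0 h group is not an unoperated lens. One eye of a mouse was operated 6 h before the other, so a pool at 6 h PCS can share mice with a pool at 0 h PCS, and which ones do is not given in the labels. Each library held between 18039974 and 24701039 read pairs counted on genes. Levels are given as CPM, the count relative to a library's TMM-scaled total of gene counts, and, where genes are compared with each other, as FPKM, which also divides by exon length and uses the unscaled total. A gene was called a differentially expressed gene (DEG) at an adjusted p of at most 0.05 in the quasi-likelihood test of edgeR, with Benjamini-Hochberg adjustment over all tested genes, and a fold change above 2. The log2 fold change of 6 h over 0 h PCS is written log2FC, with its standard error (SE) from that fit. With 3 libraries in each group the smallest two-sided p of an exact permutation test is 0.10, and the p-values printed are therefore those of edgeR.

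The lens epithelial markers Foxe3, a lens transcription factor, and Pax6, the master regulator of eye development, were present in every library. Foxe3 was at 86.9 ± 10.2 and 106 ± 6.16 CPM and Pax6 at 573 ± 90.3 and 402 ± 104 CPM at 0 h and 6 h PCS (SD, n = 3), and neither passed the adjusted test. Markers of other cells were present as well and differed between libraries. The summed level of 4 pigment cell genes (Tyr, Tyrp1, Dct and Pmel, out of 7 listed) was 209, 63.8 and 51.4 CPM in 0 h replicates 1 to 3 and 77.4, 456 and 1965 CPM in 6 h replicates 1 to 3, so that 6 h replicate 3 stood apart. The corneal keratins Krt12 and Krt5 together reached 0.765 to 14.7 CPM at 0 h PCS and 69.2 to 104 CPM at 6 h PCS, with no overlap between the time points. The third corneal gene tested of 6 listed, Aldh3a1, went the other way, from 436 ± 77.3 to 279 ± 60.1 CPM (SD, n = 3), and the sum of the 3 overlapped, at 348 to 495 CPM and 318 to 451 CPM. Aldh3a1 made up most of that sum in every library. In 0 h replicate 2 it was at 347 CPM, while the keratins together were at 0.765 CPM. The 9 leukocyte markers tested, out of 18 listed, summed to 16.9 to 33.8 CPM at 0 h PCS and 23.2 to 42.9 CPM at 6 h PCS, and the pan-leukocyte gene Ptprc lay at or below 3.24 CPM in every library. Of these 9, 1 was a DEG, the macrophage gene Cd68, at 0.619 to 1.51 CPM at 0 h PCS and 3.96, 4.68 and 9.34 CPM in 6 h replicates 1 to 3 (log2FC of 2.55 ± 0.499, SE, edgeR adjusted p = 0.0129), and it lost the call without 0 h replicate 1 or 6 h replicate 3. For 5 endothelial genes out of 9 the sums were 37.7 to 105 CPM and 54.7 to 78.5 CPM. Cdh5, the cadherin that defines endothelium, was at 0.0863 to 0.387 CPM at 0 h PCS and at 0.940, 1.03 and 4.76 CPM in 6 h replicates 1 to 3. Pecam1 was also low and without overlap, at 0.791 ± 0.333 and 3.13 ± 1.52 CPM (SD, n = 3). The most abundant of the 5, Flt1, went from 51.8 ± 24.0 to 37.9 ± 6.14 CPM (SD, n = 3). Flt1, Kdr and Tek overlapped between the time points. None of the pigment, corneal, endothelial or lens fiber genes tested (4, 3, 5 and 2) was a DEG by edgeR, and at an unadjusted p of at most 0.05 the numbers were 0, 3, 2 and 0, while DESeq2 called 0, 2, 2 and 0. At that unadjusted p, DESeq2 and the exact test of edgeR each had 3 of the 4 pigment genes higher. Of the 3 corneal genes at that unadjusted p, Krt12 and Krt5 were higher and Aldh3a1 lower. Of 8 lens epithelial genes tested, out of 14 listed, 1 was a DEG, Epha2 (log2FC of 1.21 ± 0.235, SE, edgeR adjusted p = 0.0134), and at an unadjusted p of at most 0.05 it was the 1 higher and 4 were lower (Prox1, Pitx3, Sox2 and Pax6). Prox1 (from 644 ± 32.6 to 383 ± 50.7 CPM), Pitx3 (from 56.9 ± 3.89 to 31.3 ± 4.10 CPM) and Sox2 (from 54.4 ± 3.68 to 33.5 ± 3.28 CPM, all SD, n = 3), transcription factors of lens development, did not overlap between the time points. They passed the limit on the adjusted p but not the fold limit (edgeR adjusted p = 0.0119, 0.00777 and 0.0151). In bulk RNA, more cells of a type and more RNA per cell cannot be told apart.

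**Figure D1:**
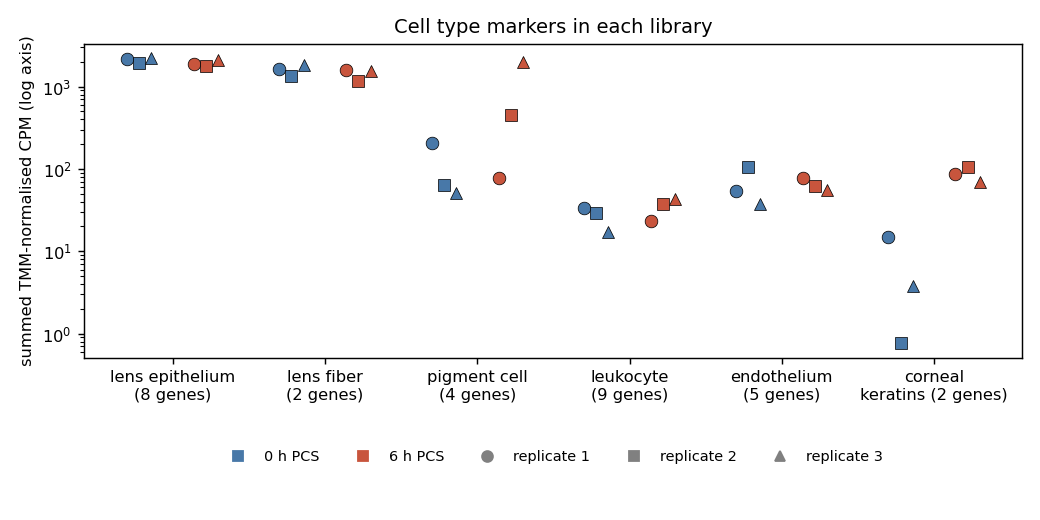
Summed TMM-normalised CPM of cell type markers (log axis) in each library at 0 h PCS (blue) and 6 h PCS (red), with 1 symbol shape per replicate. Pigment cell genes reach 1965 CPM in 6 h replicate 3, and the 2 corneal keratins are higher in all 3 libraries at 6 h PCS.

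Of the 10 genes, 8 were upregulated DEGs at 6 h PCS in the edgeR test, where 4.53% of all tested genes were upregulated DEGs. Among the tested genes that could be named, as all 10 were, the share was 11.6%, since genes with a name at hand lean towards changed ones. None was a downregulated DEG, against 0.821% of all tested genes (5.35% in either direction), and with DESeq2 9 were upregulated and 0 downregulated, against 6.4% and 1.52% of all tested genes. The fold limit removed no member, since the same 8 passed on the adjusted p alone, as did 6.31% of all tested genes upwards. At an unadjusted p of at most 0.05, 9 were higher, as were 13.3% of all tested genes, and 0 lower. The 8 were Nfkb1, Nfkb2, Relb, Nfkbia, Nfkbiz, Bcl3, Birc3 and Icam1, with log2 fold changes between 1.24 and 2.93. Nfkbie and Tnfaip3 did not pass the test. The median log2 fold change of the 10 genes was 1.99, while that of all tested genes was −0.003. In 9 of the 10, all 3 libraries at 6 h PCS lay above all 3 at 0 h PCS, a pattern that 15.3% of the tested genes had. Of the 6372 tested genes that could be named, 1705 had it. Only Nfkbie overlapped between the time points.

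**Figure D2:**
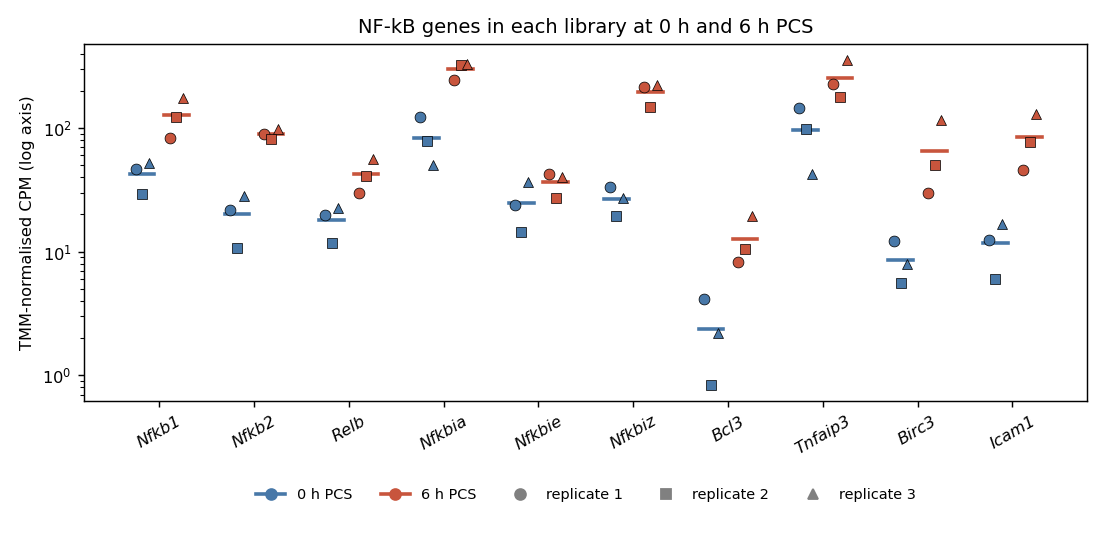
TMM-normalised CPM (log axis) of the 10 genes in each library at 0 h PCS (blue) and 6 h PCS (red), with bars at the means of 3 libraries and 1 symbol shape per replicate. The time points overlap in Nfkbie and are separate in the other 9 genes, and 6 h replicate 3 is the highest library in 9 of the 10.

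Nfkb1 encodes p105, the precursor that is processed to the p50 subunit of the classical pathway. On GRCm38 the gene (ENSMUSG00000028163) spans 135584655 to 135691969 of chromosome 3. The libraries held 46.7, 29.0 and 52.2 CPM in 0 h replicates 1 to 3 and 82.9, 123 and 175 CPM in 6 h replicates 1 to 3. The lowest library at 6 h PCS was thus above the highest at 0 h PCS, by 1.59-fold. The mean rose from 42.6 ± 12.1 to 127 ± 46.2 CPM (SD, n = 3), a log2FC of 1.57 ± 0.309 (SE, edgeR adjusted p = 0.0195).

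Nfkb2 encodes p100, which acts as an inhibitor until it is processed to the p52 subunit of the alternative pathway. It lies on chromosome 19 from 46300994 to 46312400 (ENSMUSG00000025225). At 0 h PCS the libraries held 21.8, 10.7 and 28.2 CPM, and at 6 h PCS 88.9, 82.3 and 98.0 CPM. The 3 libraries at 6 h PCS were close together, within 1.19-fold of each other, against a 2.62-fold range at 0 h PCS. The log2 fold change was 2.15 ± 0.315 (SE, edgeR adjusted p = 0.00562), so that the level rose 4.44-fold.

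Relb, whose product pairs with p52 in the alternative pathway, had the smallest change among the called genes. The gene (ENSMUSG00000002983) lies on chromosome 7 from 19606217 to 19629438. It was measured at 19.7, 11.7 and 22.7 CPM at 0 h PCS and at 29.9, 41.1 and 56.3 CPM at 6 h PCS. The groups were separate, but 0 h replicate 3 and 6 h replicate 1 differed by only 1.31-fold. Relb rose by a log2FC of 1.24 ± 0.291 (SE, edgeR adjusted p = 0.0321). When the libraries were scaled on their size alone, its log2 fold change was 0.92 and it was not a DEG.

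The other subunits completed this picture of the Rel family. Rel, which encodes c-Rel, rose from 9.94 ± 3.79 to 48.1 ± 10.1 CPM (SD, n = 3), a log2FC of 2.27 ± 0.295 (SE, edgeR adjusted p = 0.00201). Rela encodes p65, the main activating subunit of the classical pathway. Its level went from 57.2 ± 8.56 to 107 ± 17.9 CPM (SD, n = 3), a log2FC of 0.91 ± 0.169 (SE, edgeR adjusted p = 0.0105), which passed the limit on p but not the fold limit. Of the 6 fits that each leave out one library, Rela was a DEG in 2. These were without 0 h replicate 1 (log2FC of 1.02, edgeR adjusted p = 0.0285) and without 6 h replicate 1 (log2FC of 1.03, edgeR adjusted p = 0.00496). Within each library, the ratio of Nfkb1 to Rela was 0.706, 0.590 and 0.929 at 0 h PCS and 0.941, 1.12 and 1.42 at 6 h PCS on the CPM scale. The ratio of Nfkb2 to Nfkb1 was 0.467, 0.370 and 0.540 at 0 h PCS and 1.07, 0.669 and 0.560 at 6 h PCS. Both ratios were higher in all 3 libraries at 6 h PCS, by a mean of 1.57-fold and 1.63-fold, although the highest 0 h and the lowest 6 h library nearly met in each. These pairs were chosen after the values had been seen, and no test is given for them.

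**Figure D3:**
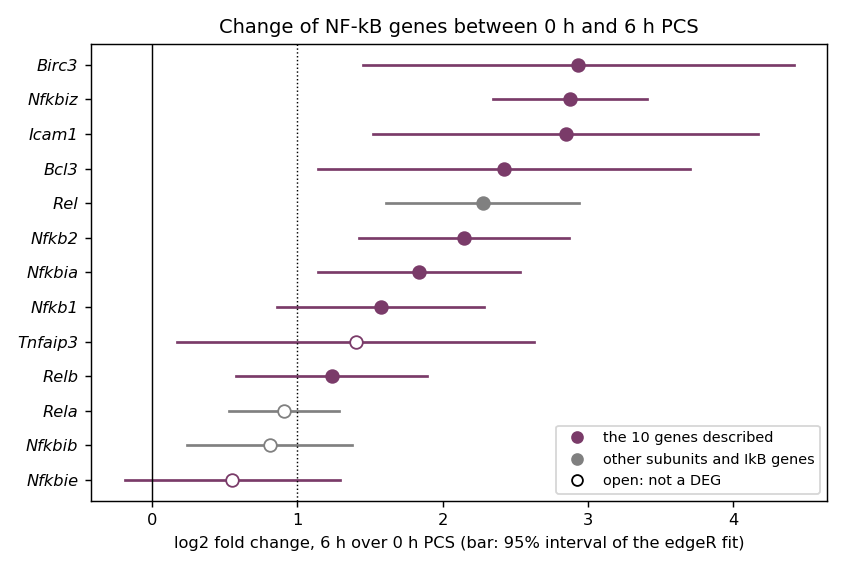
Log2 fold change of 6 h over 0 h PCS with its 95% interval from the edgeR fit, for the 10 genes (purple) and for Rel, Rela and Nfkbib (grey). Filled points are DEGs, the dotted line marks the fold limit, and the interval of Nfkbie (−0.19 to 1.29) includes 0.

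Nfkbia encodes IkBα, the inhibitor that is both degraded on activation and resynthesised as the classical feedback target. It lies on chromosome 12 from 55489409 to 55492647 (ENSMUSG00000021025). Its level was 122, 78.7 and 50.6 CPM at 0 h PCS and 244, 323 and 331 CPM at 6 h PCS. All libraries at 6 h PCS were at least 2.00-fold above the highest at 0 h PCS. It rose from 83.8 ± 35.9 to 299 ± 47.6 CPM (SD, n = 3), a log2FC of 1.84 ± 0.302 (SE, edgeR adjusted p = 0.00933).

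Nfkbie, which encodes IkBε, another cytoplasmic inhibitor, was the 1 gene of the 10 whose libraries overlapped between the time points. On chromosome 17 from 45555700 to 45563169 (ENSMUSG00000023947), it had 23.7, 14.4 and 36.6 CPM at 0 h PCS and 42.2, 27.0 and 40.3 CPM at 6 h PCS. The library with the lowest level at 6 h PCS, replicate 2, lay below 0 h replicate 3. Its log2 fold change was 0.55 ± 0.325 (SE, edgeR adjusted p = 0.358), with a 95% interval from a 0.876-fold to a 2.45-fold change, which includes both no change and a change above the fold limit. In each library the level of Nfkbia relative to Nfkbie was 5.15, 5.48 and 1.38 at 0 h PCS and 5.80, 12.0 and 8.20 at 6 h PCS. The ratio was thus higher in all libraries at 6 h PCS, but 6 h replicate 1 was close to 2 of the libraries at 0 h PCS. Nfkbib, the gene of IkBβ, was at 12.1 ± 0.663 and 21.2 ± 7.36 CPM (SD, n = 3), a log2FC of 0.81 ± 0.255 (SE, edgeR adjusted p = 0.0851), and Nfkbid was not analysed here. Only without 6 h replicate 1, among the fits that leave out one library, was Nfkbib a DEG (log2FC of 1.03, edgeR adjusted p = 0.016).

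Nfkbiz and Bcl3 encode atypical IkB proteins that act in the nucleus on p50 and p52 dimers and modulate transcription there. Nfkbiz (ENSMUSG00000035356, chromosome 16, 55811375 to 55838954) had 33.1, 19.3 and 27.3 CPM at 0 h PCS and 217, 147 and 222 CPM at 6 h PCS. The gap between the groups was the widest among the 10 genes, with every library at 6 h PCS at least 4.44-fold above every library at 0 h PCS. Its rise of 7.35-fold, a log2FC of 2.88 ± 0.236 (SE, edgeR adjusted p = 0.000214), also had the smallest p of the 10. It placed Nfkbiz above 98.4% of the tested genes by log2 fold change.

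Bcl3 (ENSMUSG00000053175, chromosome 7, 19808462 to 19822824) was the least abundant of the 10 genes, with 96, 23 and 51 counts at 0 h PCS and 124, 232 and 324 counts at 6 h PCS. In CPM these were 4.13, 0.838 and 2.20 at 0 h PCS and 8.32, 10.4 and 19.5 at 6 h PCS. No library at 6 h PCS overlapped with those at 0 h PCS. Bcl3 rose by a log2FC of 2.42 ± 0.562 (SE, edgeR adjusted p = 0.0336). Its 0 h libraries differed by 4.93-fold, the widest range at 0 h PCS among the 10 genes.

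Tnfaip3 encodes A20, an enzyme that edits ubiquitin chains and shuts off signaling upstream of the kinase complex. The gene lies on chromosome 10 from 19000910 to 19015410 (ENSMUSG00000019850). Its level was 146, 98.6 and 42.7 CPM at 0 h PCS and 226, 177 and 354 CPM at 6 h PCS. Every library at 6 h PCS was above those at 0 h PCS, by at least 1.21-fold, yet the libraries at 0 h PCS alone spanned a 3.41-fold range. The log2 fold change was 1.40 ± 0.497 (SE, edgeR adjusted p = 0.166), with a 95% interval from 1.13-fold to 6.18-fold before adjustment. Tnfaip3 was a DEG with DESeq2 (adjusted p = 0.00258) and with the exact test of edgeR (adjusted p = 0.0491), and in none of the 6 quasi-likelihood fits of edgeR that left out one library (adjusted p from 0.0996 to 0.349).

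Birc3 encodes cIAP2, a ubiquitin ligase that promotes survival downstream of tumor necrosis factor receptors. On chromosome 9 from 7847468 to 7873205 (ENSMUSG00000032000), it was measured at 12.1, 5.61 and 7.98 CPM at 0 h PCS and at 29.9, 49.9 and 117 CPM at 6 h PCS. The libraries at 6 h PCS differed among themselves by 3.90-fold, more than for any other of the 10 genes, but the lowest was still 2.46-fold above the highest at 0 h PCS. The log2FC was 2.93 ± 0.600 (SE, edgeR adjusted p = 0.0423), and the adjusted p was the closest to the limit among the 8 called genes. Birc2, the neighboring paralog that encodes cIAP1, went from 43.8 ± 4.67 to 72.3 ± 15.1 CPM (SD, n = 3), a log2FC of 0.72 ± 0.174 (SE, edgeR adjusted p = 0.0317), which was below the fold limit. Within each library the ratio of Birc3 to Birc2 was 0.255, 0.145 and 0.177 at 0 h PCS and 0.435, 0.839 and 1.31 at 6 h PCS.

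Icam1 encodes an adhesion molecule of the cell surface that binds leukocyte integrins. It lies on chromosome 9 from 21015940 to 21028814 (ENSMUSG00000037405). Its level was 12.3, 6.05 and 16.8 CPM at 0 h PCS and 45.9, 76.8 and 130 CPM at 6 h PCS. The groups were separated by at least 2.73-fold. Icam1 rose by a log2FC of 2.85 ± 0.538 (SE, edgeR adjusted p = 0.0322). Vcam1, the other adhesion gene that could be named and tested of 8 listed, was at 7.25 to 8.05 CPM at 0 h PCS and at 20.7, 76.9 and 181 CPM at 6 h PCS, a log2FC of 3.60 ± 0.849 (SE, edgeR adjusted p = 0.0771). Without 6 h replicate 3 its log2FC was 2.67, and without 6 h replicate 1 it was 4.06 and Vcam1 was a DEG (edgeR adjusted p = 0.0032), as it was with DESeq2, the exact test and non-robust estimation.

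One library at each time point was the lowest or the highest for most of the 10 genes. How common these orders are among all tested genes was not counted. At 0 h PCS, replicate 2 was the lowest library for 8 of the 10 genes, and the exceptions were Nfkbia and Tnfaip3, which were lowest in replicate 3. At 6 h PCS, replicate 3 was the highest for 9 of the 10, all but Nfkbie, and replicate 1 was the lowest for 6 (Nfkb1, Relb, Nfkbia, Bcl3, Birc3 and Icam1). In these 6 genes the order of the libraries at 6 h PCS was that of the pigment cell genes. The leukocyte sum (23.2, 38.0 and 42.9 CPM in 6 h replicates 1 to 3), Cd68 and Cdh5 had the same order. The endothelial sum ran in the reverse order (78.5, 61.2 and 54.7 CPM), and Krt12 and Krt5 together were highest in replicate 2. The part of the pigment, corneal, leukocyte and endothelial signal in the levels of the 10 genes was not tested. Without 6 h replicate 3, Birc3 (log2 fold change 2.22) and Icam1 (2.39) were still DEGs, while Relb (0.98) and Bcl3 (1.98) were not. Without both 0 h replicate 1 and 6 h replicate 3, the libraries highest in pigment genes at each time point, 3 of the 10 genes (Nfkbia, Nfkbiz and Birc3) were DEGs in a fit with 4 libraries, where 2.2% of the genes tested were upregulated DEGs. The log2FC values of the 5 that lost the call were then 1.34 for Nfkb1, 2.14 for Nfkb2, 1.05 for Relb, 2.63 for Bcl3 and 2.43 for Icam1.

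For 5 of the 8 genes the call was lost in some of the fits that each leave out one library. Nfkb2, Nfkbia and Nfkbiz, 3 of the 10 genes, stayed upregulated DEGs whichever library was omitted, which held for 2.26% of all tested genes. Nfkb1 and Icam1 were DEGs in 4 of these fits, and Relb, Bcl3 and Birc3 in 2. Nfkb1 and Icam1 lost the call without 0 h replicate 1 (log2FC of 1.64 and 2.88, edgeR adjusted p = 0.0678 and 0.112) and without 6 h replicate 2 (log2FC of 1.59 and 2.90, edgeR adjusted p = 0.0652 and 0.0783), and both log2FC values were then no lower than with all 6 libraries. Relb was not a DEG without 0 h replicate 1, 0 h replicate 2, 6 h replicate 2 or 6 h replicate 3, with an edgeR adjusted p of up to 0.1 and a log2FC of at least 0.98. Bcl3 was not a DEG without 0 h replicate 3 or without any one of the 3 libraries at 6 h PCS (log2FC from 1.98 to 2.65, edgeR adjusted p of up to 0.12). Birc3 was called only without 6 h replicate 1 or 6 h replicate 3, with a log2FC from 2.70 to 3.26 and an adjusted p of up to 0.138 in the others. No log2 fold change of the 10 genes turned negative in these fits, and the lowest was 0.27, for Nfkbie.

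**Figure D4:**
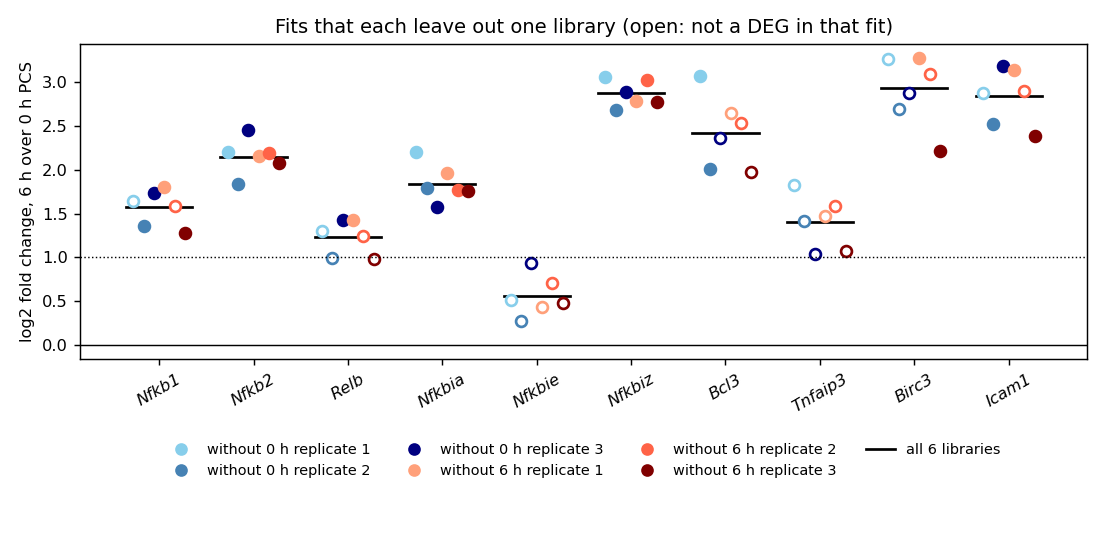
Log2 fold change of 6 h over 0 h PCS in the fits that each leave out one library (points, colored by the library left out) and with all 6 libraries (black bars). Open points are not DEGs in that fit, and Nfkb2, Nfkbia and Nfkbiz are filled throughout, while Nfkbie and Tnfaip3 are open throughout.

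Levels per exon length could be given for 8 of the 10 genes, those with an exon length at hand, which excludes Nfkbie and Tnfaip3. Nfkbia stood far above the others on the FPKM scale, with 57.6 ± 23.5 FPKM at 0 h PCS and 168 ± 37.9 FPKM at 6 h PCS (SD, n = 3), and its libraries did not overlap with those of the next gene at either time point. At 0 h PCS the next was Nfkbiz with 5.90 ± 1.49 FPKM, followed by Relb, Nfkb2, Nfkb1, Icam1 and Birc3, and Bcl3 was last with 1.07 ± 0.723 FPKM (SD, n = 3). From Nfkbiz downwards each gene overlapped with its neighbor, so the order of neighbors is not resolved. Farther apart, all libraries of Birc3 lay below those of Nfkbiz, Relb and Nfkb1, and all of Bcl3 below those of Nfkbiz, Relb, Nfkb2 and Nfkb1. At 6 h PCS Nfkbiz was second with 34.5 ± 5.00 FPKM (SD, n = 3), separate from Nfkbia above and from Nfkb2 below. Nfkb2 (17.5 ± 1.38 FPKM), Icam1 (17.4 ± 8.71 FPKM) and Birc3 (11.7 ± 7.90 FPKM, all SD, n = 3) followed, each overlapping with its neighbor. Relb and Nfkb1 were close together at 9.84 ± 3.22 and 9.49 ± 3.55 FPKM, and Bcl3 was again last with 4.62 ± 2.10 FPKM (SD, n = 3). Icam1 and Birc3 had higher means than Relb and Nfkb1 at 6 h PCS, within overlapping ranges. At 0 h PCS their means were lower, and there Birc3 lay below both without overlap, while Icam1 overlapped with both. All 8 were above 2 FPKM at 6 h PCS and changed by more than 2 FPKM, the level that the study takes as biologically significant. These 8 are also the 8 DEGs. Exon lengths were at hand for only 1998 genes, from tables sorted by p-value, so no share of all tested genes is given beside this count.

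The wider pathway was described with 8 lists by role that hold 96 further genes, of which 39 could be named and 38 tested. By edgeR, 14 of the 38 were upregulated and 0 downregulated, with a median log2FC of 0.98. DESeq2 called 19 upwards and 0 downwards, adding Rnf31, Il1r1, Vcam1, Plau and Lcn2, and at an unadjusted p of at most 0.05 edgeR had 25 higher and 0 lower. For comparison, all tested genes that could be named had 11.6% upregulated and 2.1% downregulated DEGs, with a median log2FC of 0.19. Of these 14, 9 were DEGs whichever library was omitted, and the exceptions were Irak3, Irf1, Bcl10, Tnip2 and Tnfrsf1b. Irf1 lost the call without 0 h replicate 2 or 3 or 6 h replicate 1 or 3, and Irak3 without any library other than 6 h replicate 1. Bcl10 lost it without 0 h replicate 2 or 6 h replicate 2, Tnip2 without either replicate 1, and Tnfrsf1b without 0 h replicate 1. The lists by role follow, with no test of a difference between them.

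Among 6 kinases tested of 17 listed, 3 rose and 3 did not pass the test. Ripk1, a kinase at the tumor necrosis factor receptor, rose from 25.1 ± 3.78 to 84.1 ± 16.6 CPM (SD, n = 3), a log2FC of 1.74 ± 0.188 (SE, edgeR adjusted p = 0.000619). Map3k8, a kinase that is held by p105, rose by 1.72 ± 0.225 (SE, edgeR adjusted p = 0.00176) on the log2 scale. Irak3, an inhibitory member of its family, rose by 2.07 ± 0.528 (SE, edgeR adjusted p = 0.0402). Its levels were low, at 0.437 to 1.08 CPM at 0 h PCS and 2.28 to 3.87 CPM at 6 h PCS. Not called were Tbk1 (0.18), Map3k14, the kinase that starts p100 processing (0.77), and Ikbke (0.09), and the core kinase genes Chuk, Ikbkb and Ikbkg were not analysed here.

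Of 8 adaptors and ubiquitin ligases besides Birc3, 2 rose. Myd88, the adaptor of Toll-like and interleukin 1 receptors, rose by a log2FC of 1.82 ± 0.302 (SE, edgeR adjusted p = 0.00597), from 4.75 to 9.34 CPM at 0 h PCS to 19.3 to 31.6 CPM at 6 h PCS. Bcl10 had a log2FC of 1.05 ± 0.181 (SE, edgeR adjusted p = 0.00732). Birc2 (0.72), Card10 (0.25), Rnf31 (1.08) and Traf4 (−0.10) were among the 6 that were not called, and Rnf31 ranged from 0.68 without 6 h replicate 1 to 1.31 without 6 h replicate 2, where it was a DEG (edgeR adjusted p = 0.0177).

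Negative regulators other than Tnfaip3 gave 3 upregulated DEGs of 5 tested and 15 listed. Zc3h12a, which encodes the RNase Regnase-1 that degrades inflammatory mRNAs, rose from 1.57 to 2.50 CPM at 0 h PCS to 13.2 to 18.1 CPM at 6 h PCS, a log2FC of 3.00 ± 0.295 (SE, edgeR adjusted p = 0.000411). The partners of A20, Tnip1 and Tnip2, rose by 1.87 ± 0.185 (SE, edgeR adjusted p = 0.000411) and 1.23 ± 0.237 (SE, edgeR adjusted p = 0.0118) on the log2 scale. Peli1 (0.39) and Pdlim2 (−0.27) were not called.

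The receptor list was the one with a median near that of all genes. Of 9 receptors tested of 18 listed, Tnfrsf1b and Tnfrsf12a rose, with log2FC values of 1.88 ± 0.332 (SE, edgeR adjusted p = 0.00858) and 2.02 ± 0.269 (SE, edgeR adjusted p = 0.00255), and the median was 0.003. The 7 others were not DEGs. Tnfrsf1a, the main receptor of tumor necrosis factor, was at 24.4 ± 1.92 and 45.3 ± 6.09 CPM (SD, n = 3), a log2FC of 0.90 (edgeR adjusted p = 0.0083) that was below the fold limit. Il1r1, the receptor of interleukin 1, had a log2FC of 2.28 (edgeR adjusted p = 0.0794), and it was a DEG with DESeq2 (adjusted p = 6.4e-06), with the exact test of edgeR (adjusted p = 0.0022), with non-robust estimation, and without 6 h replicate 1 or 3. Ltbr, which feeds the alternative pathway, had a log2FC of 0.003, and Tlr4, the receptor of bacterial lipopolysaccharide, one of −0.91 (edgeR adjusted p = 0.228). Without 6 h replicate 2, Tlr4 was a downregulated DEG (log2FC of −1.65, edgeR adjusted p = 0.0238).

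Among the survival and metabolic targets other than Birc3, 3 of 8 tested were upregulated DEGs, out of 19 listed. Ier3 and Gadd45b, both stress-induced genes that influence cell survival, rose by 3.32 ± 0.343 (SE, edgeR adjusted p = 0.000619) and 2.37 ± 0.215 (SE, edgeR adjusted p = 0.000288) on the log2 scale. Irf1, a transcription factor of the interferon response, rose by 1.86 ± 0.401 (SE, edgeR adjusted p = 0.038). Plau (4.36), Lcn2 (1.89), Birc2 (0.72) and C3 (0.41) were not called. Without 0 h replicate 2, C3 (log2FC of 1.18, edgeR adjusted p = 0.0255) and Lcn2 (2.43, edgeR adjusted p = 0.0374) were DEGs. On leaving out one library the log2FC ranged from 3.80 to 5.19 for Plau, from 1.35 to 2.43 for Lcn2 and from 0.09 to 1.18 for C3.

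**Figure D5:**
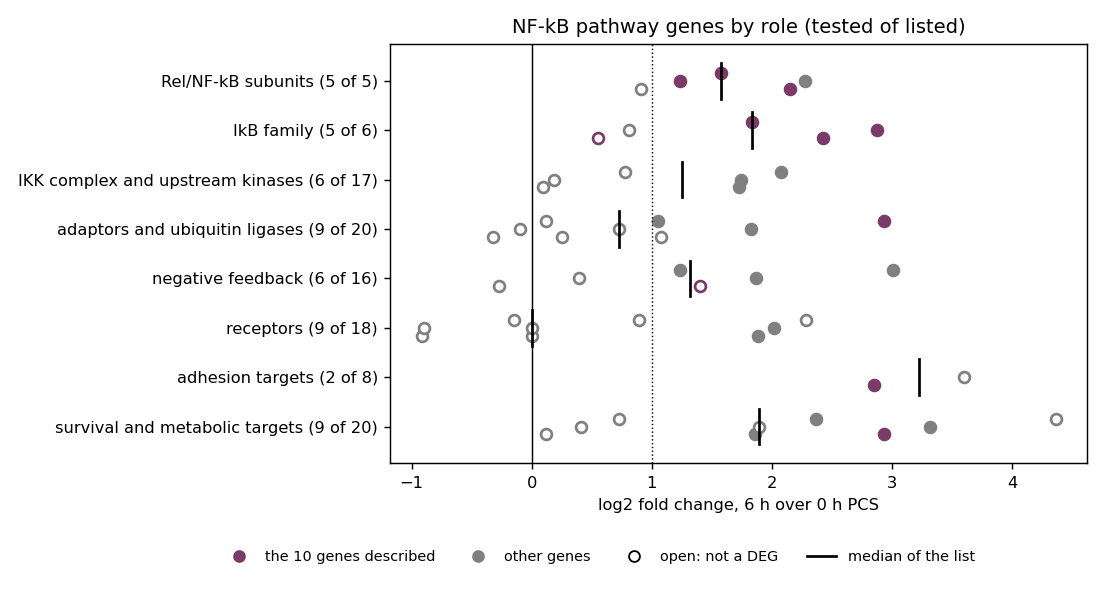
Log2 fold change of 6 h over 0 h PCS for the tested genes of 8 NF-kB pathway lists, 1 point per gene, with the number tested of the number listed beside each name. Filled points are DEGs, purple points are the 10 genes, vertical black bars are list medians, and the dotted line marks the fold limit; no filled point lies below 0.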

How the data were processed

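Raw counts of read pairs per Ensembl gene were deposited by the authors, 1 file per library. The libraries were ribodepleted and made with a stranded kit, and were sequenced as read pairs. The authors had aligned the reads to GRCm38 (p6 by the labels) with Hisat2 and counted them with HTSeq in union mode. The strand setting is not given in the sources used here, so for Nfkb1, Nfkb2 and Bcl3, which overlap other RefSeq genes, reads of the overlapping gene cannot be told apart. The 5 summary rows, 58.8% to 66.4% of the read pairs, were left out. Counts were fitted with edgeR 4.0.16 (TMM factors between 0.827 and 1.15, its low-count filter by group, robust quasi-likelihood test in its earlier form), following the methods of the study, with DESeq2 1.42.0 in R 4.3.3 as an alternative. The standard error was the absolute log2 fold change divided by the square root of F. Replicates are pools of capsules.

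Symbols came from the parts of the study's supplementary tables that were read, which name 6372 of the 16810 tested genes, as did exon lengths. CPM and FPKM were computed from the counts. These tables are sorted by p-value, so named genes lean towards changed ones. Coordinates are from RefSeq GRCm38.p6. The genes and lists were chosen with earlier results of these data known. Named besides the 10 genes were the called genes of the lists, all subunit and IkB genes, up to 4 of the most abundant uncalled genes per list, and the 5 genes most like the mean profile. Of the cell type markers, those shown were picked after their values had been seen. The libraries were not treated as paired. Promoter and protein sequences were not analysed here.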

Additional observations from a re-analysis of the deposited data

How the results depend on the processing

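The number of DEGs among the 10 genes was 8 and lay between 6 and 9 with DESeq2, the exact test, the current edgeR version of the quasi-likelihood test, non-robust estimation, other scalings, other filters and the replicate block. When glmTreat tested for a fold change above 2, it called 1 of the 10 (Nfkbiz), 7 of the other pathway genes and 221 genes in all, instead of 8, 14 and 900. Leaving out one library gave 3 to 7 of the 10 genes, 12 to 16 other pathway genes (all upregulated except Tlr4 without 6 h replicate 2) and 553 to 877 genes in all. The 10 genes fell to 4 without 0 h replicate 1 and to 3 without 6 h replicate 2. Without both 0 h replicate 1 and 6 h replicate 3, the libraries highest in pigment genes at each time point, an alternative chosen after seeing the data, 3 of the 10 (Nfkbia, Nfkbiz and Birc3) and 400 genes in all were DEGs, while the log2 fold changes of the 5 that lost the call were 1.05 to 2.63. These fits also have fewer libraries. With no low-count filter, Birc3 (adjusted p = 0.11) and Icam1 (adjusted p = 0.0894) were not called by edgeR. Scaling on library size moved the median log2 fold change of all genes to −0.317 and the DEGs from 762 up and 138 down to 572 up and 627 down, and 7 of the 10 genes were called, all upregulated. With the replicate number as a block, 7 of the 10 genes, 16 other pathway genes and 1050 genes in all were called, Birc3 was not (log2 fold change 2.79, adjusted p = 0.105), and Il1r1 was (2.00, adjusted p = 0.03). The deviations from the group means correlated between same-numbered libraries at 0.0037, 0.223 and 0.139 (replicates 1 to 3), against at most 0.0228, −0.01 and 0.007 with another number, so that replicates 2 and 3 but not replicate 1 correlated best with their own number. Whether pools share mice is not known from this. None of the 10 log2 fold changes changed sign in any setting run. Of the other genes named, 6 uncalled ones did. With library size scaling these were Tbk1 (−0.14), Ikbke (−0.26), Card10 (−0.079) and Ltbr (−0.31, and −0.0097 with no low-count filter). On leaving out one library, the lowest and highest values were −0.28 and 0.46 for Ikbke, −0.076 and 0.54 for Card10, −0.47 and 0.13 for Traf4, −1.38 and 0.12 for Pdlim2, and −0.11 and 0.10 for Ltbr, and Pdlim2 was at 0.064 without both pigment-high libraries. The looser promoter pattern was not run. At 23 to 96 counts at 0 h PCS, Bcl3 had the least depth of the 10.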

Other observations

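Among all tested genes outside the pathway lists, those whose log2 CPM over the 6 libraries was most like the mean standardized profile of the 10 genes were Cavin1, Plekho2, Nup98, Spata13 and Pxdc1, with Pearson r between 0.996 and 0.999. The points share the 2 time points, and 2511 tested genes had an r at least as high as that of the least similar of the 10 (Nfkbie, 0.72), so the likeness is a description only. Cavin1, a coat protein gene of caveolae, was at 189 ± 24.2 and 339 ± 45.0 CPM (SD, n = 3), a log2FC of 0.84 ± 0.156 (SE, edgeR adjusted p = 0.0101), which did not pass the fold limit. Nup98, a gene of the nuclear pore, was at 78.2 ± 14.4 and 148 ± 16.1 CPM (SD, n = 3), also below the fold limit. Pxdc1 rose from 4.17 ± 1.58 to 26.2 ± 7.34 CPM (SD, n = 3), a log2FC of 2.65 ± 0.326 (SE, edgeR adjusted p = 0.00129), and Plekho2 from 9.44 ± 1.93 to 20.9 ± 3.18 CPM.

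Nfkbia and Tnfaip3 ordered the 0 h libraries differently from the other 8 genes. Both were highest in replicate 1 and lowest in replicate 3 (122 against 50.6 CPM for Nfkbia, and 146 against 42.7 CPM for Tnfaip3), as was Rel (13.4 against 5.91 CPM). In the other 8 genes 0 h replicate 2 was the lowest. The ratio of Nfkbia to Rela was 1.84, 1.60 and 0.902 at 0 h PCS, while at 6 h PCS it lay within a narrow range, at 2.77, 2.94 and 2.67.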
